A study of Mus musculus with 4 samples.

Results

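The MS4A genes encode small proteins that span the cell membrane several times. The 7 mouse members studied here in sorted skin immune cells were Ms4a4a, Ms4a4b, Ms4a4c, Ms4a6b, Ms4a6c, Ms4a6d and Ms4a7. They were taken as a fixed list of symbols, chosen with earlier results of these data known. The list made up 7 of the 31053 genes counted, beside 12 other genes whose symbol begins with Ms4a. Counts of members called, set beside all genes, thus describe this list and do not test the family. Cells positive for CD45, the surface protein of blood-derived cells, and negative for the dead-cell dye DAPI came from 2 control skins and 2 skin tumors, with 1 droplet library per sample. All 4 carry the genotype label C57/BL6. The tumors had grown in C57BL/6 mice injected with 2323 cells, a line derived from a mouse in which the keratinocyte promoter K14 drives an inducible Cre switch and whose alleles include P53-/-. Female and male mice are named for the injections, without saying which animal gave which tumor, and the control skins came from C57 mice without tumors. A single tumor line was used, injected under the skin, and no injected skin without a tumor was sequenced. Tumor growth, injection and the site of the tissue, under the skin or skin itself, thus cannot be told apart.

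The best known relatives of these genes are Ms4a1, which encodes the B cell protein CD20, and Ms4a2, the beta chain of the high-affinity IgE receptor of mast cells. Ms4a7 and Ms4a4a are known from macrophages, and MS4A4A can associate with the fungal receptor Dectin-1. Ms4a4b is known from T cells, where its protein can associate with the costimulatory receptor GITR. Ms4a4c is often listed among the genes that interferons induce. The products of the Ms4a6 group are less well described.

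The libraries held 3499 and 3862 cells from control skin and 5176 and 2258 cells from skin tumor, with between 34893543 and 73904272 unique molecular identifiers (UMIs, each standing for 1 captured RNA molecule). After cell filters and removal of 453 likely doublets, 12395 cells remained, and 7342 of them fell into exactly 1 of 17 cell classes set by marker genes, none of which was an Ms4a gene. Over 53 pairs of a class and a further marker gene that its gate did not use, where a few genes marked more than 1 class, that class had the highest level of the gene in 35 pairs and was among the top 3 classes in 48. For type 2 conventional dendritic cells, Mgl2 was highest in the class, whereas Clec10a ranked 3 and Irf4 and Sirpa ranked 4 among 16 classes. These ranks pool both groups. In this class Mgl2 stood at 8.26 and 9.43 UMIs per 10,000 in the control skins and 4.10 and 6.15 in the tumors. Irf4 was also lower in both tumors, Clec10a was higher in both, and Sirpa overlapped. Pairs of libraries shared between 1 and 7 cell barcodes. Levels are given as UMIs of a gene per 10,000 UMIs of its class in a library, wherever a library held 10 or more cells of that class. Intervals and floors cover counting error only.

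All 7 members lie in 1 stretch of 283.8 kb on mouse chromosome 19. In the order of the chromosome (GRCm38, GENCODE M21), these are Ms4a7 (chr19:11321039-11336146, minus strand), Ms4a4a (chr19:11375523-11392790, plus), Ms4a4c (chr19:11404770-11427246, plus), Ms4a4b (chr19:11443553-11467055, plus), Ms4a6c (chr19:11469366-11482192, plus), Ms4a6b (chr19:11516512-11531256, plus) and Ms4a6d (chr19:11586604-11604849, minus). Of the 9 protein-coding genes in the stretch, 8 are Ms4a genes, including Ms4a4d, which was not among the 7. A gene on the opposite strand overlaps Ms4a4c (Gm5692), Ms4a6c (BE692007) and Ms4a6b (Gm19261). Between 0% and 8.19% of a member's 50-base stretches of transcript also occur in another Ms4a gene. Whether reads were drawn to the wrong member was not tested.

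**Figure D1:**
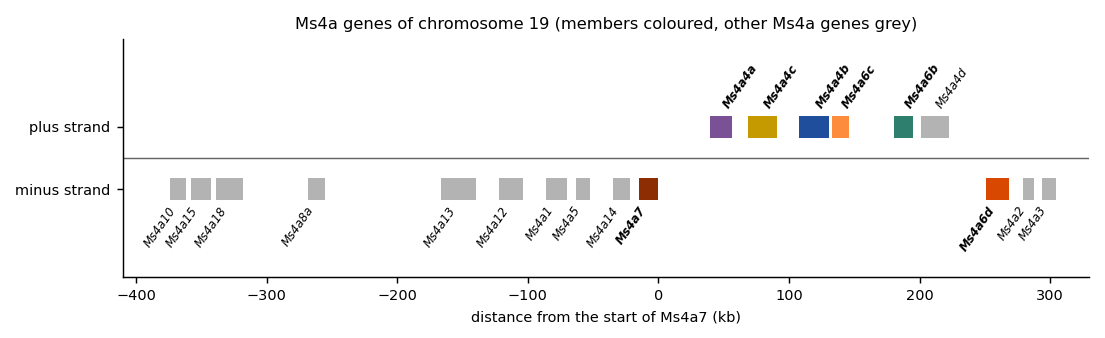
Map of the Ms4a genes on chromosome 19, with distance from the start of Ms4a7 in kb on the horizontal axis and the strand on the vertical axis; the 7 members are coloured and the other 12 Ms4a genes are grey. The 5 members from Ms4a4a to Ms4a6b lie side by side on the plus strand, and Ms4a7 and Ms4a6d lie at both ends on the minus strand.

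The sequences just before the RefSeq start of Ms4a4b and Ms4a4c, and of Ms4a6b and Ms4a6c, resemble each other within each pair. They are shown because the members of the first pair were found in different cell classes, whereas those of the second pair overlapped in several. The stretches are from RefSeq (GRCm38.p6, plus strand), each from 250 bases before the RefSeq start, and end before the first base that any annotated transcript holds as exon. Those of Ms4a4c and Ms4a6b lie inside the gene as placed above, since its GENCODE start lies before its RefSeq start. Capitals mark runs of at least 12 bases shared by the 2 members of a pair.
Ms4a4b, chr19:11443308-11443552: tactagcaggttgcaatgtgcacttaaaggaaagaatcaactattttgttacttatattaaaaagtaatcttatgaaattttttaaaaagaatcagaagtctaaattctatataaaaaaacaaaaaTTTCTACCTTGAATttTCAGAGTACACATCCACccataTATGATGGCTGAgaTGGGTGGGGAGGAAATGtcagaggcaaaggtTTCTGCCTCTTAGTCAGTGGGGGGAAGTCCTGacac
Ms4a4c, chr19:11407411-11407660: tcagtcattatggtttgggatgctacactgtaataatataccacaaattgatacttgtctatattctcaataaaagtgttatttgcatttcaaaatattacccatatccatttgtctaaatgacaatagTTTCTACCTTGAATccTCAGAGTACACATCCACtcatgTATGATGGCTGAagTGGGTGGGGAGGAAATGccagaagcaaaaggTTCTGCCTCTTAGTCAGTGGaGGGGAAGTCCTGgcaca
Ms4a6b, chr19:11518309-11518452: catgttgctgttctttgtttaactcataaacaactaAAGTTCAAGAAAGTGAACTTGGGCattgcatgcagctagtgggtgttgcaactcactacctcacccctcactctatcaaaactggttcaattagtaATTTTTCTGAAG
Ms4a6c, chr19:11469118-11469365: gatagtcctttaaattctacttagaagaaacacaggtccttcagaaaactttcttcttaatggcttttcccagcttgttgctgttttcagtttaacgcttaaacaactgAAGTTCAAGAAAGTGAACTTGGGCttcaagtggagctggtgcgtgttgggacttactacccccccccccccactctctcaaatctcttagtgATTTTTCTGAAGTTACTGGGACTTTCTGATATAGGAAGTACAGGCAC
In the first pair 92 bases lay in shared runs, of which the longest had 20 bases. In the second pair the shared runs held 72 bases of the 250-base windows, the longest with 48 bases, and 36 of these bases stand in the shorter stretch of Ms4a6b. The other 13 pairs of member windows held no such run, their longest match being 9 bases. Of the 7 members, 6 had a RefSeq window, with 7 windows in all. None of the 7 windows held, on either strand, GAAA and GAAA spaced by any 2 bases (an interferon response motif) or GAGGAAGT (a motif for PU.1). These letters occurred in 2.98% and 2.44% of 32851 windows of the same length. With shares this low, finding none in 7 windows tells little, and only exact matches were sought.

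The 7 genes differed in the classes that held them. Ms4a7 was a macrophage transcript, with 4.29 ± 1.31 UMIs per 10,000 in macrophages (SD, n = 4 libraries) and 0.725 ± 0.386 in monocytes, without overlap between the 2 classes. Macrophages were gated by the complement genes C1qa, C1qb and C1qc, and monocytes by Ly6c2, Plac8 and Ccr2 with few C1q UMIs. Macrophages held 69.9% and 82.7% of the Ms4a7 UMIs of all gated cells in the control skins, and 98.6% and 98.3% in the tumors. These shares also depend on cell numbers. Macrophages were 58 of 1545 and 186 of 1716 gated cells in the control skins, and 1730 of 2933 and 606 of 1148 in the tumors. After each cell was thinned to 1000 UMIs, 31.6% ± 11 of macrophages had an Ms4a7 UMI, against 0.289% and 0.660% of Langerhans cells (LC) of control skin, the antigen-presenting cells of the epidermis.

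Ms4a4b was a lymphocyte transcript. Its level was 5.93 ± 0.721 UMIs per 10,000 in CD8 T cells and 5.86 ± 0.757 in natural killer (NK) cells, and the ranges of these classes overlapped. CD4 T cells followed with 2.88 ± 0.543, below every library of the former classes, and regulatory T cells (Treg) with 0.882 ± 0.128, below every library of CD4 T cells (SD, n = 4 each). In dendritic epidermal T cells (DETC), the gamma delta T cells of mouse epidermis, it was only 0.0670 and 0.0450 in the control skins and 0.0431 in tumor 2. That is near the 0.0576 ± 0.020 of macrophages, a class that should lack it. Thinned to 1000 UMIs, 43.6% ± 6.03 of CD8 T cells had an Ms4a4b UMI, and between 0% and 0.809% of macrophages.

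Ms4a4c, Ms4a6c, Ms4a6d and Ms4a4a were highest in monocytes. Ms4a4c measured 5.37 ± 0.681 UMIs per 10,000 in monocytes, 2.92 ± 1.47 in type 2 conventional dendritic cells (cDC2, gated by Cd209a, Flt3 and MHC class II) and 1.76 ± 0.612 in macrophages, where the last 2 ranges overlapped. Ms4a6c measured 6.17 ± 1.18 in monocytes, 3.56 ± 1.12 in macrophages and 2.92 ± 1.09 in cDC2, each range overlapping the next, and 1.16 ± 0.213 in type 1 conventional dendritic cells (cDC1, gated by Xcr1 and Clec9a). It also stood at 2.36 in the 13 plasmacytoid dendritic cells of tumor 1, the only library with at least 10 of these interferon-producing cells. Ms4a6d measured 3.38 ± 0.852 in monocytes, 2.33 ± 0.295 in macrophages, overlapping, and 1.35 ± 0.230 in cDC2, below both. Ms4a4a measured 0.75 ± 0.271 in monocytes, above 0.336 ± 0.0891 in macrophages and 0.307 ± 0.130 in cDC2, which overlapped.

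Ms4a6b crossed both lineages. Its level was 2.96 ± 0.583 UMIs per 10,000 in monocytes, 2.52 ± 0.456 in CD8 T cells, 1.84 ± 1.15 in CD4 T cells, 1.71 ± 0.726 in macrophages, 1.28 ± 0.746 in Treg, 1.12 ± 0.810 in cDC2 and 0.80 ± 0.521 in NK cells, and each range overlapped the next. The ratio of Ms4a6b to Ms4a6c UMIs lay between 0.428 and 0.538 in the 4 macrophage samples and between 4.37 and 9.36 in the 4 CD8 T cell samples. In cDC2 it was 0.212 and 0.218 in the control skins and 0.490 and 0.449 in the tumors.

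**Figure D2:**
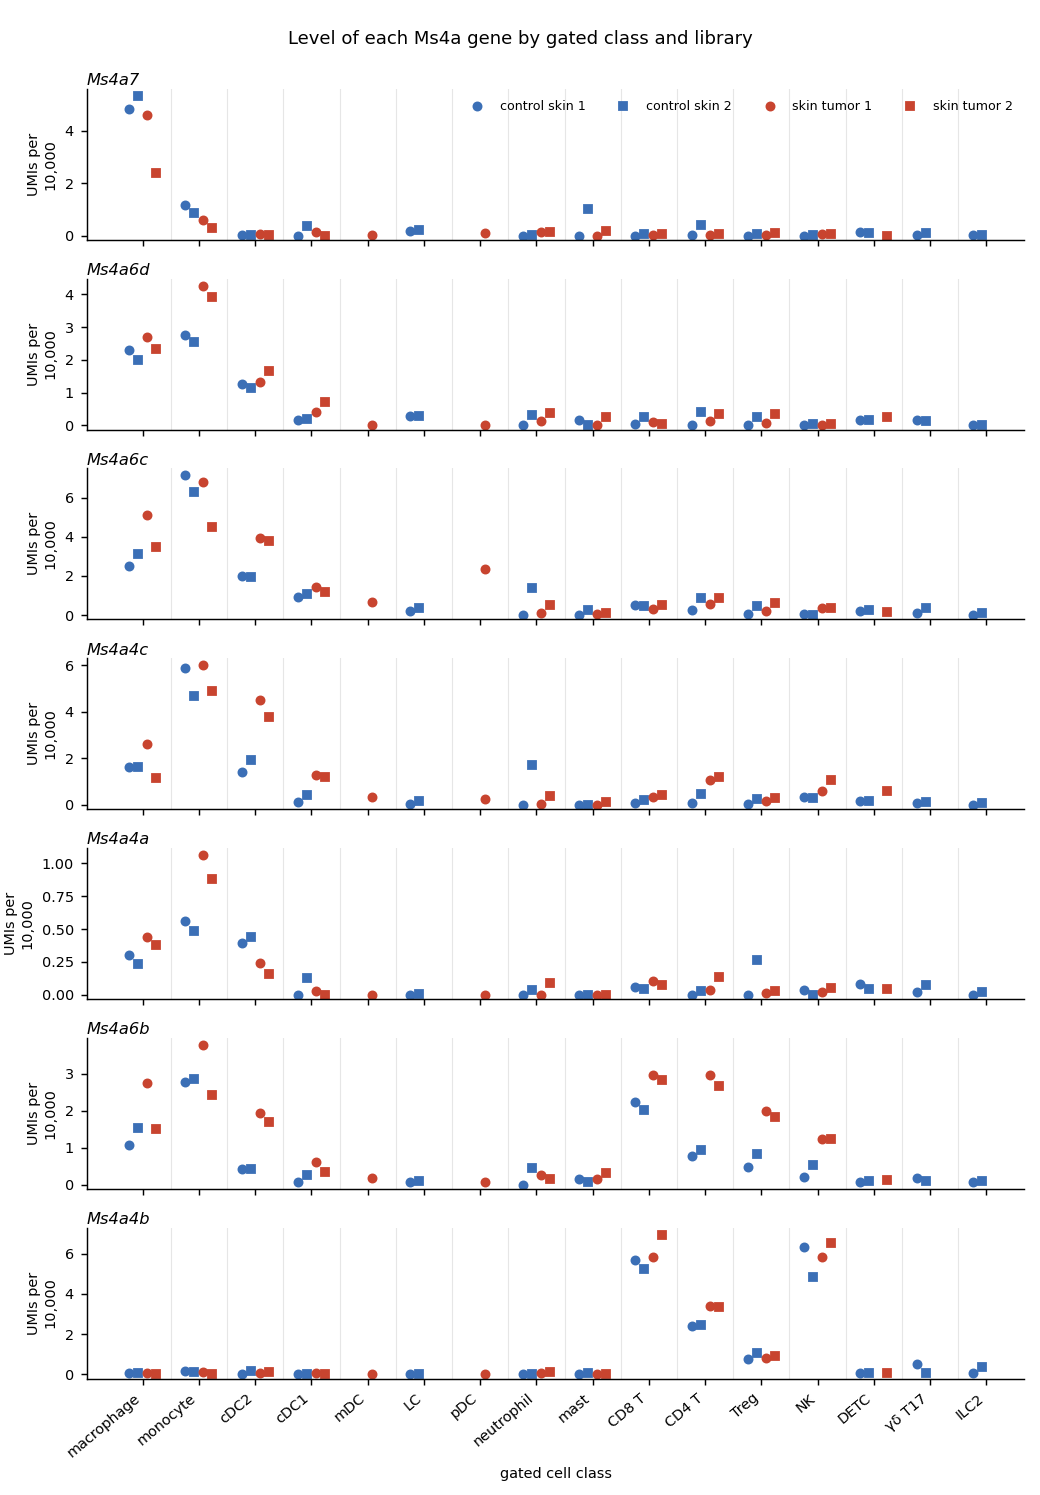
UMIs per 10,000 (vertical axes, each starting at 0) of the 7 genes in every gated class (horizontal axis) with at least 10 cells in a library; circles and squares are libraries 1 and 2 of control skin (blue) and skin tumor (red). Ms4a7 stands in macrophages, Ms4a4b in T and NK cells, Ms4a6b in both lineages, and the other 4 genes in monocytes, macrophages and cDC2.

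Neighbouring classes were then compared within the same libraries, with the library as a block. Of 32 pairs of a member and a comparison, 7 were higher and 15 lower in the first class at an adjusted p under 0.05. Against macrophages, monocytes had less Ms4a7 (log2 difference -2.72 ± 0.17, SE, adjusted p = 4.79e-05) and more Ms4a4c (1.65 ± 0.16), Ms4a4a (1.20 ± 0.16), Ms4a6b (0.83 ± 0.15), Ms4a6c (0.80 ± 0.17) and Ms4a6d (0.53 ± 0.15). Thus 6 of 7 members were called, where 15.7% of 8669 genes were. Ms4a6c missed the threshold without control skin 2 (adjusted p = 0.0537) and without tumor 1 (0.0513). Ms4a6d missed it without control skin 2 (0.0741), tumor 1 (0.207) or tumor 2 (0.191).

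cDC2 had less than monocytes of 5 of the 7 members, where 14% of 7330 genes were called and 7.65% called lower. Ms4a7 was lower by a log2 difference of -3.93 ± 0.37, Ms4a6b by -1.62 ± 0.38, Ms4a6d by -1.27 ± 0.18, Ms4a6c by -1.08 ± 0.26 and Ms4a4c by -0.95 ± 0.26. Only Ms4a7 and Ms4a6d passed whichever library was left out. Without control skin 1 the adjusted p was 0.0614 for Ms4a6b, 0.0666 for Ms4a6c and 0.0775 for Ms4a4c. Without control skin 2 these were 0.0834, 0.109 and 0.148, and without tumor 1 Ms4a6c had 0.0544 and Ms4a4c 0.0501. For Ms4a4a the difference was -1.32 ± 0.42 (adjusted p = 0.0737).

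cDC1 had less than cDC2 of all 5 members tested, where 15.5% of 7514 genes were called and 10.3% called lower. The log2 differences were -2.96 ± 0.50 for Ms4a4a, -2.17 ± 0.26 for Ms4a4c, -2.02 ± 0.27 for Ms4a6d, -1.83 ± 0.29 for Ms4a6b and -1.38 ± 0.20 for Ms4a6c. Each stayed under the threshold with any library left out (largest adjusted p 0.0240).

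Among lymphocytes, CD4 T cells had less Ms4a4b than CD8 T cells (-1.07 ± 0.14, adjusted p = 0.00297) and Treg less than CD4 T cells (-1.76 ± 0.20, 0.00156), both whichever library was left out. Ms4a4b in NK cells and CD8 T cells differed by -0.01 ± 0.14 (adjusted p = 0.988). Ms4a4c was higher in CD4 than in CD8 T cells (1.34 ± 0.24) and lower in Treg than in CD4 T cells (-1.98 ± 0.36). Both rested on each tumor library, with adjusted p values of 0.145 and 0.135 without tumor 1 and 0.145 and 0.0797 without tumor 2. The Ms4a4c difference between CD4 and CD8 T cells also missed the threshold with stricter gates and without cycling cells. That between Treg and CD4 T cells missed it with doublets kept (adjusted p = 0.103). NK cells had more Ms4a4c (1.22 ± 0.28) and less Ms4a6b (-1.80 ± 0.33) than CD8 T cells. This Ms4a4c difference between NK and CD8 T cells missed the threshold without control skin 1, control skin 2 or tumor 2. It fell to 0.11 (adjusted p = 0.902) without cycling cells. That of Ms4a6b missed it without control skin 2 (0.0742). The share of genes called was 3.27% of 7333 for CD4 against CD8 T cells, 4.83% of 6767 for Treg against CD4 T cells and 10.2% of 6501 for NK against CD8 T cells.

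**Figure D3:**
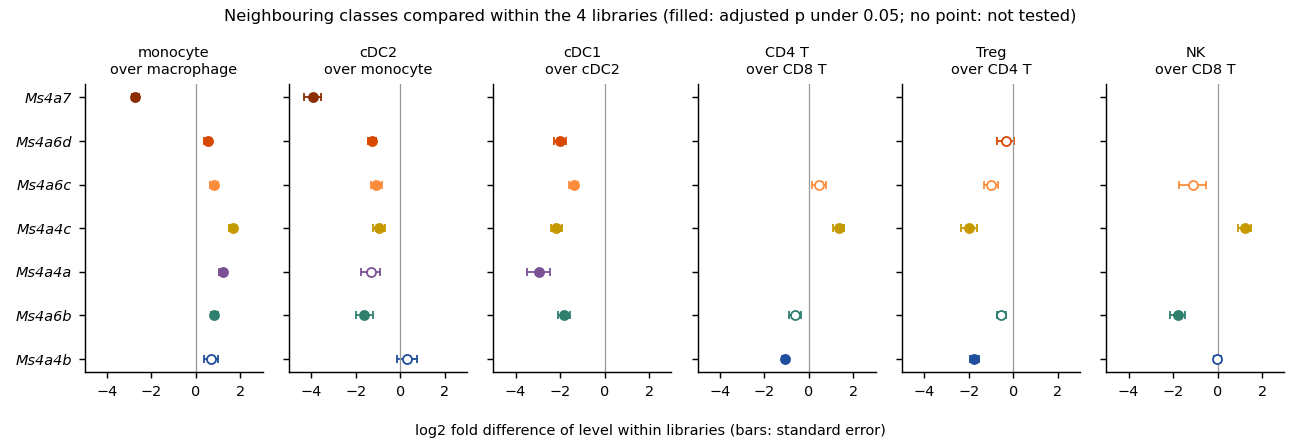
Log2 difference of level between neighbouring classes within the 4 libraries (horizontal axes, with standard errors) for each gene (rows); filled points passed an adjusted p under 0.05 and genes without a point were not tested. All 5 genes tested fell from cDC2 to cDC1, and Ms4a7 alone was called lower in monocytes than in macrophages.

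Skin tumors were compared with control skin within each class, to ask how the immune cells of a tumor differ from those of skin. At least 1 member could be tested in 9 classes, which gave 44 pairs of a member and a class. Of these, 7 were higher and 1 was lower in tumors, in cDC2, NK cells and CD4 T cells, and 36 did not pass (adjusted p between 0.0609 and 0.999). Ms4a6b was the member that rose in all 3 of these classes. With 2 libraries against 2, an exact permutation test could not reach the threshold, so the calls rest on the edgeR model fitted across all genes of a class, and their p values measure the spread between these libraries. With so few libraries, groups without overlap are frequent for a gene without an effect, and their share over all genes was not counted. As the level is relative to all RNA of a class, fewer cells that express a gene and less of its RNA per cell cannot be told apart.

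In cDC2, Ms4a6b stood at 0.424 and 0.425 UMIs per 10,000 in the control skins and at 1.93 and 1.70 in the tumors. The tumors lay well above both control skins (log2 fold change 1.88 ± 0.20, SE, adjusted p = 0.00602). The share of cDC2 with an Ms4a6b UMI, thinned to 1000 UMIs, went from 1.92% and 3.49% to 12.6% and 13.2%. Whichever library was left out, the adjusted p was at most 0.0383.

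Ms4a4c in cDC2 stood at 1.43 and 1.94 UMIs per 10,000 in the control skins and 4.53 and 3.76 in the tumors (1.08 ± 0.21, adjusted p = 0.0247). Ms4a6c stood at 2.00 and 1.95 in the control skins and 3.94 and 3.79 in the tumors (0.76 ± 0.17, 0.0386). Ms4a4a moved the other way, from 0.390 and 0.437 to 0.245 and 0.155 (-1.20 ± 0.30, 0.0467). The groups did not overlap for any of these genes. However, these calls needed both control skins. Without control skin 1 the adjusted p was 0.219 for Ms4a4c, 0.272 for Ms4a6c and 0.130 for Ms4a4a, and without control skin 2 it was 0.0816, 0.267 and 0.173. With DESeq2 the adjusted p was 0.00623, 0.0722 and 0.122, and without cycling cells Ms4a6c had 0.0531 and Ms4a4a 0.0967. With stricter gates Ms4a6c had 0.0623.

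Ms4a6d in cDC2 was 1.26 and 1.13 UMIs per 10,000 in the control skins and 1.34 and 1.67 in the tumors, and did not pass (0.11 ± 0.22, adjusted p = 0.770). Ms4a7 was at or below 0.0732 in every cDC2 sample and was not tested. Ms4a4b differed by -0.50 ± 0.68 (0.675). In all, 3 of the 6 members tested in cDC2 were higher and 1 was lower with edgeR, and 2 were higher and 0 lower with DESeq2. Over all 8262 genes edgeR called 10.6%, 4.47% higher and 6.09% lower, and DESeq2 called 698 genes. The median log2 fold change was 0.44 over the members tested and 0.04 over all genes.

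Several other transcripts moved in the cDC2 gate. Of 7 genes known to respond to interferon, 5 were higher in tumor cDC2, among them Cxcl10 (4.38 ± 0.51, adjusted p = 0.00668) and Irf7 (2.88 ± 0.35, 0.00824). Genes of this list were also higher where no member was called, 3 of 4 tested in cDC1 and 2 of 7 in CD8 T cells. The counts were 2 of 7 in CD4 T cells, 1 of 7 in monocytes, 0 of 7 in macrophages and 0 of 4 in Treg. Of 4 monocyte genes tested in cDC2, Plac8 (3.27 ± 0.25) was higher, and Ccr2, Vcan and Ly6c2 were not called (-0.81, -1.34 and 0.85). Plac8 was also called higher in CD8 T cells (3.78 ± 0.24) and NK cells (2.47 ± 0.29), and in no other class where it was tested. A list of 6 monocyte genes summed to 3.68 and 4.90 UMIs per 10,000 in control cDC2 and 12.5 and 10.2 in tumor cDC2. This sum also rose in CD8 T cells (2.82 and 2.55 against 7.27 and 8.51), cDC1 and NK cells. It was lower in both tumors in monocytes, macrophages and Treg. C1q transcripts, which should be absent, summed to 0.221 and 0.263 in the control skins and 0.500 and 0.719 in the tumors. Of other macrophage transcripts, Lyz2 (-2.48 ± 0.34, adjusted p = 0.0105) and Cd163 (-6.31 ± 0.31, 0.00128) were lower in tumor cDC2, and Apoe was not called (0.35 ± 0.23, 0.359). The C1q genes, Apoe and Lyz2 together summed to 42.6 and 42.9 in the control skins and 7.60 and 13.4 in the tumors. Per 100 C1q UMIs there were between 161 and 387 Ms4a6b UMIs in cDC2, 2.49 to 3.43 in macrophages and 181 to 1350 in monocytes. The gates asked for at least 10 C1q UMIs in macrophages and fewer in monocytes and cDC2. They thus partly set these ratios, which cannot tell where the RNA came from. The part of monocyte-like cells in the cDC2 result was not tested. Cycling cells, with at least 2 UMIs of Top2a and Mki67 together, were 12.3% of control and 22.3% of tumor cDC2, and without them Ms4a6b still differed by 1.83 (adjusted p = 0.00482).

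In NK cells, Ms4a6b stood at 0.208 and 0.518 UMIs per 10,000 in the control skins and 1.25 and 1.23 in the tumors (1.82 ± 0.34, adjusted p = 0.00251). It stayed under the threshold whichever library was left out (adjusted p at most 0.0329), but its size ranged from 1.23 without control skin 1 to 2.49 without control skin 2. Without cycling cells, which were 12.7% of control and 16.5% of tumor NK cells, it was 1.48 (0.0978).

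Ms4a4c in NK cells stood at 0.329 and 0.311 in the control skins and 0.614 and 1.06 in the tumors (1.29 ± 0.36, adjusted p = 0.0332). It missed the threshold without control skin 1 (0.0709) or tumor 2 (0.200), with stricter gates (0.122), with DESeq2 (0.293) and without cycling cells (0.342). Ms4a6c had 4 UMIs and 0 UMIs in the control skins, or 0.0693 and 0 per 10,000, and 39 and 20 UMIs in the tumors, or 0.363 and 0.342. The ratio of the pooled levels was 8.56, with a 95% counting interval from 3.17 to 32.4 (fitted adjusted p = 0.00826, or 0.0600 without tumor 1 and 0.103 with DESeq2). Ms4a4b stood at 6.31 and 4.81 in the control skins and 5.83 and 6.51 in the tumors, with overlapping groups (0.10 ± 0.23, adjusted p = 0.902). Thus 3 of the 4 members tested in NK cells were higher, where 6.94% of 6385 genes were called and 3.24% called higher. DESeq2 called 1 of them, Ms4a6b, and 147 genes in all. Ms4a6c passed the filter on low counts only through the tumor libraries, so its place among the 3 was partly set by that filter.

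The NK cell gate changed in other genes too. Of 6 interferon response genes tested, 4 were higher, and of 5 genes of tissue residence, Itgae (-5.48 ± 0.37), Itga1 (-3.02 ± 0.36) and Cxcr6 (-2.81 ± 0.49) were lower in tumors. The residence genes Rgs1 (-0.92 ± 0.31) and Cd69 (0.14 ± 0.24) were not called. Of 4 genes of recirculating lymphocytes tested, Lef1 (2.22) and Klf2 (1.03 ± 0.22) were higher. Tcf7 (-0.68 ± 0.25) and Ccr7 (0.46 ± 0.58) were not called. Tnfrsf18, which encodes GITR, was lower in tumor NK cells (-0.99 ± 0.24, adjusted p = 0.0156). The macrophage transcripts Lyz2 (2.45) and Apoe (1.83) were also called higher in the NK gate, and C1q transcripts summed to 0.104 and 0.259 UMIs per 10,000 in control and 0.623 and 0.410 in tumor NK cells. In tumor 1, NK cells held 58.2 Ms4a6c UMIs per 100 C1q UMIs, against 6.38 in macrophages, 548 in monocytes and 789 in cDC2 of the same library. In tumor 2 these were 83.3, 6.41, 334 and 528. The macrophage gate asked for at least 10 C1q UMIs and the gates of monocytes and cDC2 for fewer. These ratios are thus partly set by the gates and do not place the NK values. The part of RNA from macrophages, monocytes or cDC2 in the NK result was not tested. Of all 241 NK cells, 27 held 1 or 2 Cd3 UMIs, under the limit of the gate.

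In CD4 T cells, Ms4a6b rose from 0.766 and 0.925 UMIs per 10,000 in the control skins to 2.97 and 2.68 in the tumors (1.69 ± 0.23, adjusted p = 0.0192). It was the only call among the 5 members tested there, where 3.2% of 7539 genes were called and 1.88% called higher. The groups did not overlap, but no library could be spared: the adjusted p was 0.348 without control skin 1, 0.0930 without control skin 2, 0.295 without tumor 1 and 0.0866 without tumor 2, with log2 fold changes between 1.62 and 1.76. It also missed the threshold with stricter gates (0.0544), without cycling cells (0.0807) and without a filter on low counts (0.238). Ms4a4c stood at 0.0833 and 0.477 in the control skins and 1.07 and 1.18 in the tumors (2.12 ± 0.56, adjusted p = 0.102). Ms4a4b stood at 2.38 and 2.44 against 3.37 and 3.33 and did not pass (0.41 ± 0.22, 0.355), nor did Ms4a6c (0.39 ± 0.49, 0.726) or Ms4a6d (0.27 ± 1.02, 0.926). C1q transcripts summed to 0.0167 and 0.280 in control and 0.526 and 1.23 in tumor CD4 T cells.

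In CD8 T cells no member was called by edgeR, where 4.94% of 8388 genes were. Of the 5 tested, 1 had an unadjusted p under 0.05, as had 1934 of the 8388 genes. This was Ms4a4c, which the control skins alone would not have carried past the filter on low counts. DESeq2 called 463 genes and 0 members. Ms4a6b measured 2.24 and 2.02 UMIs per 10,000 in the control skins and 2.97 and 2.84 in the tumors (0.31 ± 0.21, adjusted p = 0.424). Ms4a4c measured 0.0679 and 0.191 against 0.348 and 0.442 (1.60 ± 0.49, 0.109). Ms4a4b measured 5.68 and 5.25 against 5.82 and 6.94 (0.09 ± 0.23, 0.861). Ms4a6c differed by -0.45 ± 0.32 (0.454) and Ms4a6d by -0.79 ± 0.90 (0.650). Cycling cells made up 26.0% of control and 53.1% of tumor CD8 T cells.

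The tumor effect on Ms4a6b was larger in CD4 than in CD8 T cells by a log2 difference of 1.41 ± 0.27 in a test of the difference itself (adjusted p = 0.0388). It missed the threshold without control skin 1 (0.203), tumor 1 (0.148) or tumor 2 (0.0591). It also missed it with relative log expression factors (0.0537), stricter gates (0.0616), total UMIs without factors (0.0676) and DESeq2 (0.0897), and without cycling cells, where the difference was 1.15 (0.408). This was the only one of 23 such differences called by edgeR. In this comparison 0.796% of 8415 genes were called, 0.665% with the larger effect in CD4 T cells. In the other comparisons of this kind the share of genes called was 0.687% for monocytes and macrophages, 1.54% for cDC2 and macrophages and 0.677% for NK and CD8 T cells. By edgeR the differences for Ms4a6b between cDC2 and macrophages (1.40 ± 0.32, adjusted p = 0.0814) and between NK and CD8 T cells (1.51 ± 0.44, 0.175) did not pass. Neither did those for Ms4a4a between cDC2 and macrophages (-1.70 ± 0.35, 0.0608) and for Ms4a6c between NK and CD8 T cells (3.53 ± 0.77, 0.0774). DESeq2 called 1 member with a higher tumor effect in cDC2 than in macrophages, among 249 genes it called in that comparison.

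In Treg, Ms4a6b stood at 0.466 and 0.836 UMIs per 10,000 in the control skins and 1.99 and 1.84 in the tumors, without overlap (1.52 ± 0.34, adjusted p = 0.166). Ms4a4b stood at 0.762 and 1.06 in the control skins and 0.815 and 0.895 in the tumors (-0.12 ± 0.33, 0.920). Ms4a4c (0.59 ± 0.83), Ms4a6c (0.68 ± 0.89) and Ms4a6d (0.67 ± 1.18) had larger errors. No member was called among the 5 tested, and edgeR called 0% of 5938 genes in Treg. At an unadjusted p under 0.05 edgeR gave 767 genes, 1 of them a member, and DESeq2 called 57 genes, of which 0 were members. The control skins held only 23 and 19 Treg.

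In macrophages none of the 7 members was called, where edgeR called 0.411% of 11911 genes. Of the members, 1 had an unadjusted p under 0.05, as had 1622 of the 11911 genes. DESeq2 called 383 genes and 0 members. Ms4a7 stood at 4.84 and 5.33 UMIs per 10,000 in the control skins and 4.59 and 2.38 in the tumors (-0.75 ± 0.30, adjusted p = 0.334). The tumors lay below both control skins but far apart from each other. Ms4a6c stood at 2.51 and 3.13 against 5.12 and 3.47 (0.40 ± 0.24, 0.533). Ms4a6b stood at 1.07 and 1.53 against 2.76 and 1.49, with overlap (0.49 ± 0.31, 0.557). Ms4a4a stood at 0.302 and 0.232 against 0.437 and 0.375 (0.44 ± 0.23, 0.485), and Ms4a6d at 2.31 and 1.99 against 2.71 and 2.32 (0.04 ± 0.19, 0.973). Ms4a4c differed by 0.01 ± 0.33 (0.996) and Ms4a4b by -0.50 ± 0.49 (0.738). Cycling cells were 8.20% of control and 20.2% of tumor macrophages.

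In monocytes no member was called among 6, where edgeR called 0.115% of 6930 genes. Here 3 members had an unadjusted p under 0.05, as had 725 of the 6930 genes. DESeq2 called 86 genes and 0 members. Ms4a7 stood at 1.18 and 0.854 UMIs per 10,000 in the control skins and 0.595 and 0.271 in the tumors (-1.18 ± 0.40, adjusted p = 0.342). Ms4a4a stood at 0.565 and 0.486 against 1.07 and 0.882 (0.87 ± 0.29, 0.331), and Ms4a6d at 2.77 and 2.54 against 4.27 and 3.93 (0.58 ± 0.22, 0.399). Groups did not overlap for these 3 genes, which with 2 libraries in each group is frequent without an effect. Ms4a4c overlapped, with 5.90 and 4.67 in the control skins and 6.01 and 4.91 in the tumors (0.01 ± 0.23, 0.999). Ms4a6c (-0.29 ± 0.25, 0.765) and Ms4a6b (0.09 ± 0.28, 0.964) overlapped as well. Control skin 1 held only 14 monocytes.

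In cDC1, Ms4a4c stood at 0.112 and 0.433 UMIs per 10,000 in the control skins and 1.28 and 1.20 in the tumors (1.84 ± 0.45, adjusted p = 0.0609). Ms4a6d stood at 0.149 and 0.206 against 0.414 and 0.703 (1.31 ± 0.50, 0.193) and Ms4a6b at 0.0747 and 0.247 against 0.607 and 0.340 (1.26 ± 0.56, 0.247), and Ms4a6c differed by 0.17 ± 0.29 (0.810). None of the 4 members tested passed with edgeR, where 3.43% of 5710 genes did. Here 3 members had an unadjusted p under 0.05, as had 1132 of the 5710 genes. These were Ms4a4c, Ms4a6b and Ms4a6d. The control skins alone would not have carried them past the filter on low counts, so this count was partly set by that filter. DESeq2 called 165 genes and 0 members. In neutrophils edgeR called 0% of 3303 genes and neither of 2 members, Ms4a4c (-2.44 ± 1.10, adjusted p = 0.948) and Ms4a6c (-1.52 ± 0.99, 0.953). Control skin 1 held 0 UMIs of the 7 members in its 16 neutrophils. At an unadjusted p under 0.05 edgeR gave 168 genes and DESeq2 called 3, with 0 members in either count. In mast cells no member passed the filter on low counts. Langerhans cells, DETC, gamma delta T cells of the IL-17 type and group 2 innate lymphoid cells had under 10 cells in at least 1 tumor and were not tested.

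**Figure D4:**
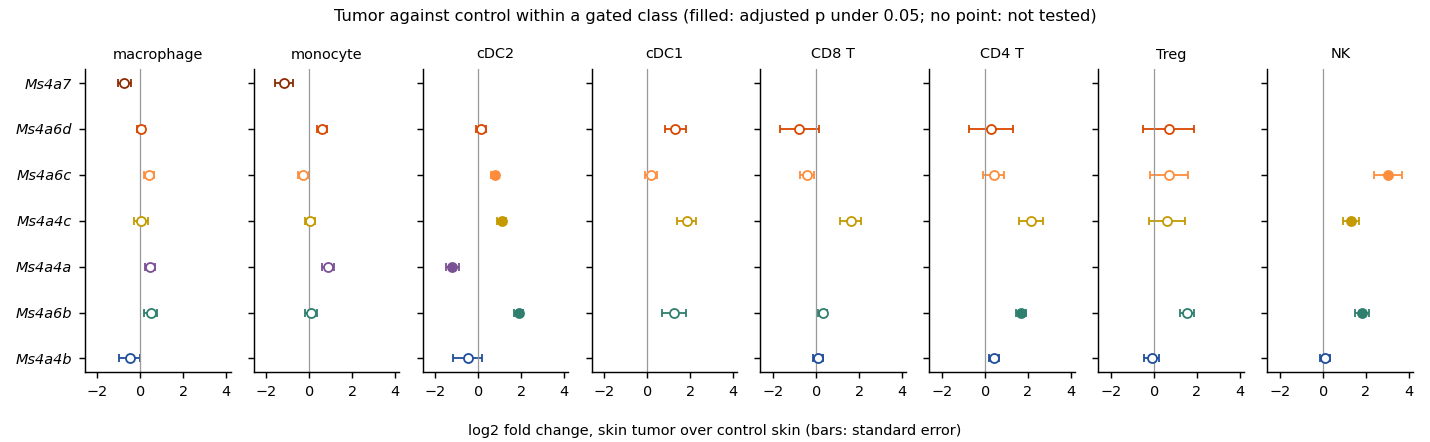
Log2 fold change of skin tumor over control skin (horizontal axes, with standard errors) for each gene (rows) in 8 gated classes; filled points passed an adjusted p under 0.05, and genes without a point were not tested. Ms4a6b is filled in cDC2, CD4 T and NK cells, Ms4a4c and Ms4a6c in cDC2 and NK cells, and Ms4a4a in cDC2, where it lies below 0.

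**Figure D5:**
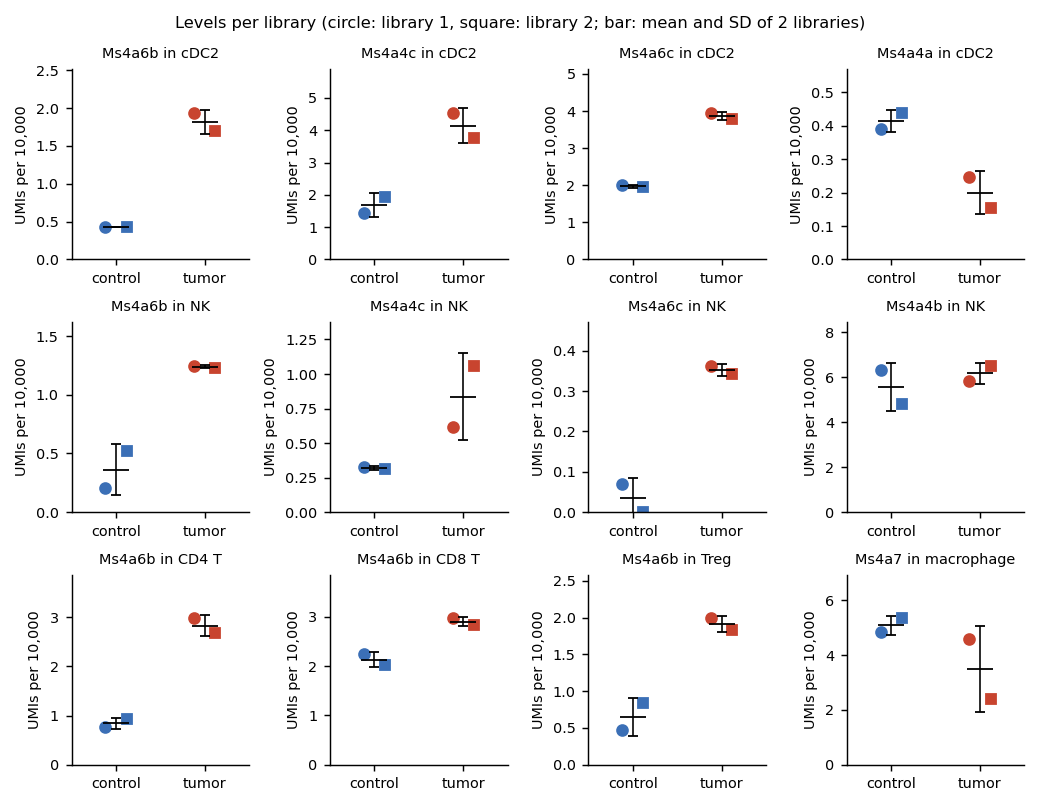
UMIs per 10,000 (vertical axes from 0) in each library for 12 pairs of a gene and a class; circles are library 1, squares library 2, and bars give the mean and SD of the 2 libraries of a group (cut off at 0). The 2 control skins lie at 0.424 and 0.425 for Ms4a6b in cDC2 and the tumors at 1.93 and 1.70, whereas for Ms4a4b in NK cells the groups overlap.

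The 7 members were also summed. In cDC2 the sum was 5.57 and 6.10 UMIs per 10,000 in the control skins and 12.1 and 11.2 in the tumors, and in CD4 T cells 3.53 and 5.55 against 8.17 and 8.57. The tumors also lay above both control skins in CD8 T cells (8.60 and 8.26 against 9.69 and 10.9), NK cells (6.95 and 5.69 against 8.14 and 9.29), cDC1 (1.31 and 2.47 against 3.96 and 3.47) and, narrowly, Treg (1.31 and 3.21 against 3.29 and 4.17). In macrophages it was 12.7 and 13.9 in the control skins and 18.3 and 11.3 in the tumors, and in monocytes 20.5 and 17.8 against 22.6 and 16.9, so that the groups overlapped in both classes, as they did in neutrophils and mast cells. These sums were not tested, and the share of all genes without overlap was not counted. They are relative to total UMIs without scaling factors. On that scale the median log2 fold change of all genes was higher than with factors in each class whose tumors lay above. The shift was 0.22 in cDC2, 0.07 in CD4 T cells, 0.14 in CD8 T cells, 0.04 in NK cells, 0.25 in cDC1 and 0.04 in Treg.

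Likeness of pattern was measured over 51 samples of a class in a library, from 16 classes, as the Pearson correlation of log2 levels, given as a description since samples of a library share its depth. Ms4a4b was most like Gm2682 (r = 0.952), Sh2d1a, which encodes the lymphocyte adaptor SAP, and Ifng (0.933). Ms4a7 was most like Pf4 (0.879), C3ar1, the receptor of the complement fragment C3a, and Trem2 (0.860), a lipid-binding receptor of macrophages. Ms4a6b was most like Ifi206 (0.866) and Ifi213 (0.799), of the interferon-inducible Ifi200 family. Ms4a4c was most like another member, Ms4a6c (0.870), followed by Ifi213 (0.821), and Ms4a4a was most like Ms4a6d (0.851). Ms4a6c was most like Pld4 (0.912), an endosomal nuclease, and Ms4a6d was most like Fcgr1 (0.896), which was itself a gate gene of macrophages. Between Ms4a4b and Ms4a4c, whose upstream sequences share 92 bases, r was -0.07, and between Ms4a6b and Ms4a6c it was 0.574.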

How the data were processed

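CD45+ cells of 2 control skins and 2 skin tumors were measured by 3' single-cell RNA sequencing. The authors deposited raw UMI counts per gene and cell, made with Cell Ranger (7.1.0 in the methods and processing notes, 7.0.1 in the matrix headers) on mm10, before cell filters, doublet removal or normalization. The handling of intronic reads is not given in the sources used here.

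Cells with at least 100 genes, 1000 UMIs, at most 15% mitochondrial UMIs and a log10 ratio of genes to UMIs of at least 0.8 were kept. Doublets were scored against simulated ones (an own implementation), and the top 1% per 1000 cells was removed. Classes were gated by UMIs of marker genes. Of 12395 cells, 4376 passed no gate (median 4972 UMIs, against 14328.5 in gated cells), 423 passed 2 or more and 254 were non-immune. The gate thresholds were chosen after the data had been seen, and 89 of 2580 macrophages and 28 of 373 monocytes lay near the C1q limit that divides them.

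UMI counts of a class were summed within each library. The sums were fitted with edgeR 4.0.16 by its quasi-likelihood method, after filterByExpr and scaling by TMM, wherever every library had 10 or more cells of the class. P values were adjusted by Benjamini-Hochberg over all genes of a fit, and 0.05 was the threshold. Standard errors were derived from the F statistic. Shares of cells were taken after thinning to 1000 UMIs. In data simulated for each class, between 58.5% (neutrophil) and 91.5% (NK) of 200 genes changed by 2 on the log2 scale were called. DESeq2 1.42.0, other factors, filters, gates and left-out libraries were tried as alternatives. Nothing in the labels says how the animals were handled between libraries, so p values measure the spread between samples.

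The members are named in every class where they were tested, other family genes where they reached 0.1 UMIs per 10,000, and for likeness the genes with the highest correlation (log2 with a pseudocount of 0.1, among 7505 genes at 0.5 or above). Members and gene lists were chosen with earlier results of these data known. Some list genes, a promoter motif and an allele of the tumor line are not reported here, and list counts leave those genes out. Of 31053 identifiers, 30934 were found in GENCODE M21. Xist was at most 0.00617 and Ddx3y between 0.951 and 2.35 UMIs per 10,000 in the 4 libraries.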

Additional observations from a re-analysis of the deposited data

Results flagged for a closer look

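The tumor effect on Ms4a6b differed between CD4 and CD8 T cells, by 1.41 on the log2 scale in a test of the difference itself, and missed the threshold with DESeq2, other factors, stricter gates, no cycling cells or any of 3 libraries left out, as given beside that test above. Cycling cells went from 26.0% to 53.1% of CD8 T cells. In the edgeR fit without cycling cells the difference was 1.15 (adjusted p = 0.408), and their part in it was not tested further.

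For Ms4a4a, both tumors lay above both control skins in monocytes and below both in cDC2. The 2 log2 fold changes, 0.87 and -1.20, differed by 2.07. By edgeR the change in monocytes was not called (adjusted p = 0.331). That in cDC2 was called (0.0467) but needed both control skins, and was not called with DESeq2 (0.122). This difference between monocytes and cDC2 was not tested.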

How the results depend on the processing

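Beside the 8 pairs called between tumors and control skin, DESeq2 called 4, all among the 8. With 1 library left out between 5 and 9 pairs were called, of which 3 to 6 were among the 8 (3 without control skin 1, 4 without control skin 2 and 6 without either tumor). Without cycling cells 5 were called, 3 of them among the 8. Ms4a6b in cDC2 passed under all 13 alternatives, with log2 fold changes between 1.81 and 2.11. Ms4a6b in NK cells missed the threshold only without cycling cells. The replicate numbers did not pair the libraries (correlations of deviations between -0.04 and 0.16 over classes). With the number as a replicate block 8 pairs were called, 6 of them among the 8, and Ms4a4a and Ms4a6c in cDC2 had adjusted p values of 0.0589 each. Of the differences of the tumor effect, 1 in the fit reported, 0 passed with relative log expression factors, without cycling cells or with total UMIs without factors (chosen after seeing the data), and 0 or 1 with 1 library left out. Without a filter on low counts 6 passed, with doublets kept 2 and with all deposited cells 3. With DESeq2 1 passed, between cDC2 and macrophages. In this section, counts under an alternative are given without the share of all genes called under it. They describe how calls depend on the setting and are no result about the members. Of the 32 differences of level between classes that were tested, 22 were called. With stricter gates 10 could be tested, since fewer cells passed, and 4 were called, and without cycling cells 13 of 24, all of them among the 22. At full depth the share of cells with a UMI was 33.3% for Ms4a4a, 91.9% for Ms4a4c, 84.0% for Ms4a6b, 93.3% for Ms4a6c and 82.4% for Ms4a6d in monocytes, 95.3% for Ms4a4b in CD8 T cells and 74.8% for Ms4a7 in macrophages, against 7.54%, 39.6%, 23.3%, 42.8%, 25.8%, 43.6% and 31.6% after thinning. Ms4a4b changed sign where its difference was near 0. With 1 library left out it ranged from -0.079 to 0.21 in CD8 T cells, from -0.35 to 0.11 in Treg, from -0.11 to 0.33 in NK cells, and from -0.041 to 0.053 between NK and CD8 T cells. It was 0.47 in Treg without cycling cells, and between NK and CD8 T cells 0.0024 with relative log expression factors, 0.0039 with DESeq2, 0.0025 with doublets kept, 0.0069 with all deposited cells and 0.012 with stricter gates. Totals without factors moved the median log2 fold change of all genes between tumors and control skin by 0.19 in macrophages, 0.22 in cDC2, 0.25 in cDC1 and 0.14 in CD8 T cells, and Ms4a4a in cDC2 then had an adjusted p of 0.0849. Of the other values, 553 kept their side of the threshold, 63 fell short and 24 newly passed. The cause of these changes was not tested. Ms4a6c had between 0 and 39 UMIs in each NK sample, and Ms4a4a between 14 and 77 in each cDC2 sample.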

Other observations

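Other genes of the family were read in the same fits. Ms4a14, the neighbour of Ms4a7, was a macrophage transcript that stood at 0.402 and 0.425 UMIs per 10,000 in control skin and 0.159 and 0.113 in tumors (-1.80 ± 0.25, SE, adjusted p = 0.0458 by edgeR). It was lower in monocytes than in macrophages within libraries by -3.70 ± 0.38 (adjusted p = 0.000599). Ms4a8a measured 0.359 and 0.415 in control and 0.296 and 0.200 in tumor monocytes (-0.71 ± 0.38, adjusted p = 0.591), against 0.0587 and 0.0939 in control and 0.178 and 0.287 in tumor macrophages (1.34 ± 0.40, 0.223). It was lower in cDC2 than in monocytes (-3.87 ± 0.41, adjusted p = 0.000646). Ms4a2, the IgE receptor beta chain, stood at 4.34 and 4.67 in control mast cells and 3.07 and 1.80 in tumor mast cells, and its change did not pass (-0.63 ± 0.42, adjusted p = 0.520).

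Tmem176a and Tmem176b, relatives of the family on chromosome 6, fell in tumor NK cells. Tmem176a went from 0.537 and 0.414 UMIs per 10,000 to 0.139 and 0.102 (-1.96 ± 0.43, adjusted p = 0.00762), and Tmem176b changed by -1.78 ± 0.48 (0.0290). In cDC2, Tmem176a went from 2.43 and 2.64 to 1.61 and 1.56 (-0.89 ± 0.18, 0.0265), whereas Tmem176b did not pass (-0.68 ± 0.21, 0.0807). Whether a smaller share of tissue-resident NK cells had a part in these values was not tested.

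Within CD8 T cells, Ms4a4b and Ms4a6b were found together at full depth in 65.0% and 67.3% of control and 88.6% and 92.9% of tumor cells. The products of the single shares were 63.6%, 66.0%, 88.5% and 93.0%.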
